A study of Mus musculus with 16 samples.

Results

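The comparison is that of mature splenic B-cells of mice without miR-146a (Mir146a-/-, KO) with the same cells of wild-type (WT) mice. It was made over 8 of the 16 RNA-Seq libraries of the series, namely every library labelled as marginal zone (MZ) or follicular (FO) B-cells. The 4 groups were KO MZ, KO FO, WT MZ and WT FO, with 2 libraries each, and the other 8 libraries held transitional T1 and T2 B-cells of the same genotypes. Spleens of several mice were pooled before sorting. The KO mice are germline knockouts labelled C57BL/6, so every cell type of the animal lacks the miRNA. The WT mice, also labelled C57BL/6, were bought from a supplier and are not described as littermates, and the age of the RNA-Seq animals is not given in the sources used here. By the study's gates, MZ cells were CD23 negative, AA4 negative, IgM high and CD21 high, and FO cells were CD23 positive, AA4 negative, IgM low and CD21 intermediate. The labels number the libraries of a group 1 and 2 but do not say which mice went into which, so p-values measure only the spread between these libraries.

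MicroRNAs bind short complementary sites, mostly in the 3′ untranslated region (UTR) of messenger RNAs, and lower the stability and translation of those messages. miR-146a is induced by NFκB and is known as a brake on Toll-like receptor and interleukin-1 signaling, through its targets Traf6 and Irak1. MZ B-cells sit beside the marginal sinus and answer blood-borne antigens fast and without T cell help, while FO B-cells recirculate and enter germinal centers.

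The sequences below are shown because pairing to bases 2 to 8 of the miRNA, its seed, is what marks a message as a possible direct target. The mature miRNA is given as RefSeq lists it for GRCm38.p6, with the seed in capitals, and is read from the minus strand of chr11:43374435-43374456.
mmu-miR-146a-5p: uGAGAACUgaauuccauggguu
The sites are from GENCODE M21 transcripts on GRCm38, 22 bases each and 5′ to 3′, with the site in capitals. The 8-base form pairs with the whole seed and ends in an A opposite base 1 of the miRNA, and the 7-base form GTTCTCA lacks the pair with base 8. Traf6, the ubiquitin ligase downstream of Toll-like receptors, held 4 sites of the 8-base form AGTTCTCA in its 3′ UTR, of which the most upstream is shown. Irak1, a kinase of the same pathway, held 2 of them and 1 shorter site, and Numb, an inhibitor of Notch, held 1. Notch2 held only the 7-base form GTTCTCA.
Traf6, chr2:101697945-101697966, plus strand: ccgctctggtgttgAGTTCTCA
Irak1, chrX:74015377-74015398, minus strand: ttctcatgcttggaAGTTCTCA
Irak1, chrX:74015393-74015414, minus strand: gactcagaggtcaaAGTTCTCA
Numb, chr12:83794813-83794834, minus strand: agaatattttaaatAGTTCTCA
Notch2, chr3:98148661-98148682, plus strand: gtgcacacacagtagGTTCTCA

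The libraries were scaled by the authors to 13503388 to 26386684 reads for the 8 mature samples. The values are RPKM, read counts scaled to the length of the gene and the depth of the library. The Mir146 gene itself (chr11:43374397-43374461) was listed at 0 in all 4 KO libraries and in both WT MZ libraries, and at 0.58 and 0.66 RPKM in WT FO, which is 1 read in each. A count under 3 reads is below the floor used here, so the precursor gene checks no label in these libraries. The sort markers followed the labels. Cr2, which encodes CD21, had 974 and 723 RPKM in KO MZ, against 767 and 852 in WT MZ, and 215 and 199 in KO FO, against 160 and 222 in WT FO. Fcer2a, which encodes CD23, had 6.74 and 21.1 RPKM in KO MZ, against 7.64 and 23.2 in WT MZ, and 622 and 652 in KO FO, against 719 and 751 in WT FO. The 10 B-cell defining genes summed to 5466 to 5698 RPKM in KO libraries and to 5137 to 5816 in WT libraries.

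Of 11969 genes tested, 5 differed between KO and WT at an adjusted p under 0.05 and a log2 difference beyond 1 (limma on log2(RPKM + 0.5), with subset as covariate and Benjamini-Hochberg adjustment over all tested genes). That is 0.0418% of the genes tested. Lyrm7, Tgtp1 and Trbd2 rose and 9930111J21Rik2 and Gm12233 fell. A further 2 genes, Irgm1 (higher) and Gm2a (lower), passed with smaller differences, which made 7 genes or 0.0585%. At an unadjusted p under 0.05 there were 841 genes or 7.03%, of which 570 (4.76%) were higher and 271 (2.26%) lower in KO. That count ran between 438 without WT FO replicate 1 and 1390 without WT FO replicate 2, and it was 450 without WT MZ replicate 1. The median log2 difference over all tested genes was 0.03, with a median SE of 0.09. Apart from Trbd2, every gene that passed lies on chromosome 11, the chromosome of Mir146.

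9930111J21Rik2 had the smallest p of all. It is also listed as Irgb5, an immunity-related GTPase gene of the interferon-inducible family that acts against intracellular pathogens in the mouse, at chr11:49015874-49051242. It had 0.33 and 0.40 RPKM in KO MZ and 0.33 and 0.39 in KO FO, against 32.7 and 44.4 in WT MZ, with 29.7 and 41.2 in WT FO. No mature KO library held more than 68 reads and no mature WT library fewer than 4149. The log2 difference was -5.43 ± 0.13 (SE, adjusted p = 4.01e-06 in limma), and it was -5.29 in the transitional libraries (adjusted p = 8.40e-06). Its close copy 9930111J21Rik1 stayed expressed, at 30.2 and 32.4 RPKM in KO MZ and 23.1 and 25.6 in KO FO, against 25.1 and 27.6 in WT MZ, with 18.7 and 20.6 in WT FO. That copy differed by 0.27 ± 0.06 (adjusted p = 0.53). The study kept only reads with a unique alignment. Reads that fit both copies equally well are thus not in these values, and the level of each copy is uncertain.

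Lyrm7 encodes a mitochondrial chaperone that holds the iron-sulfur subunit of respiratory complex III before its assembly. The gene is at chr11:54826866-54860916. It had 7.29 and 5.72 RPKM in KO MZ and 5.86 and 5.33 in KO FO, against 0.81 and 0.74 in WT MZ, with 0.63 and 0.98 in WT FO. Every KO library lay above every WT library by a wide margin. The log2 difference was 2.34 ± 0.12 (adjusted p = 4.72e-04 in limma), and 2.00 in the transitional libraries (adjusted p = 0.032). None of the other 16 tested genes of complex III and its assembly was called. Nearest to it came Uqcrq, a subunit gene that is also on chromosome 11, with 0.31 ± 0.10 (adjusted p = 0.66).

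Tgtp1, an immunity-related GTPase, lies next to 9930111J21Rik2 at chr11:48985327-48994172. It had 3.44 and 2.50 RPKM in KO MZ and 3.69 and 2.24 in KO FO, against 0.28 and 0.48 in WT MZ, with 0.32 and 0.49 in WT FO. The groups did not overlap, and the log2 difference was 1.95 ± 0.18 (adjusted p = 0.015 in limma). Its near-identical neighbour Tgtp2 had 3.65 and 2.75 RPKM in KO MZ and 4.13 and 2.18 in KO FO, against 3.80 and 3.29 in WT MZ, with 4.04 and 3.54 in WT FO. Tgtp2 differed by -0.21 ± 0.17 (adjusted p = 0.73), and the same limit on near-identical copies holds. The call was lost with 7 of the 8 libraries left out singly, all but KO FO replicate 2, and with the replicate block (adjusted p = 0.063). In the 4 KO and 4 WT transitional libraries Tgtp1 differed by 1.49 (adjusted p = 0.44).

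Irgm1, a regulatory member of that GTPase family (chr11:48861968-48871683), had 33.5 and 32.1 RPKM in KO MZ and 25.4 and 22.6 in KO FO, against 20.5 and 22.6 in WT MZ, with 13.6 and 15.6 in WT FO. The subsets differed, but within each of them both KO libraries were above both WT libraries. It rose by 0.65 ± 0.07 on the log2 scale (adjusted p = 0.028 in limma). That call was lost with any of the 8 libraries left out (adjusted p of 0.074 to 0.17) and with the replicate block (0.092). Gm2a, the lysosomal activator protein for breakdown of the ganglioside GM2 (chr11:55098115-55113029), had 62.1 and 65.7 RPKM in KO MZ and 41.1 and 35.9 in KO FO, against 96.1 and 96.0 in WT MZ, with 55.5 and 56.5 in WT FO. It fell by 0.56 on the log2 scale (SE 0.05, adjusted p = 0.017 in limma), a call lost with any library left out but KO FO replicate 1 (0.069 to 0.13) and with the replicate block (0.063). Gm12233, annotated as antisense (chr11:55137044-55140193), had 1.00 and 1.09 RPKM in KO MZ and 2.07 and 1.47 in KO FO, against 3.40 and 3.66 in WT MZ, with 5.76 and 4.43 in WT FO. It fell by 1.34 on the log2 scale (SE 0.12, adjusted p = 0.014 in limma), a call lost with any library left out but KO FO replicate 1 and WT FO replicate 2 (0.059 to 0.091). It overlaps Slc36a3 on the other strand, and with the library kit used reads of overlapping genes cannot be told apart.

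Trbd2, a diversity segment of the T cell receptor beta locus at chr6:41542163-41542176, passed on very few reads. It held 2 and 4 reads in KO MZ and 3 and 2 in KO FO, against 0 in all 4 WT libraries. Its short length turns these into 5.76 to 16.2 RPKM. The fitted log2 difference of 4.38 ± 0.23 (adjusted p = 4.72e-04 in limma) has no value as a fold, since a count of 0 allows up to 3 reads per library. The call was lost without KO replicate 1 (adjusted p = 0.062).

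**Figure D1:**
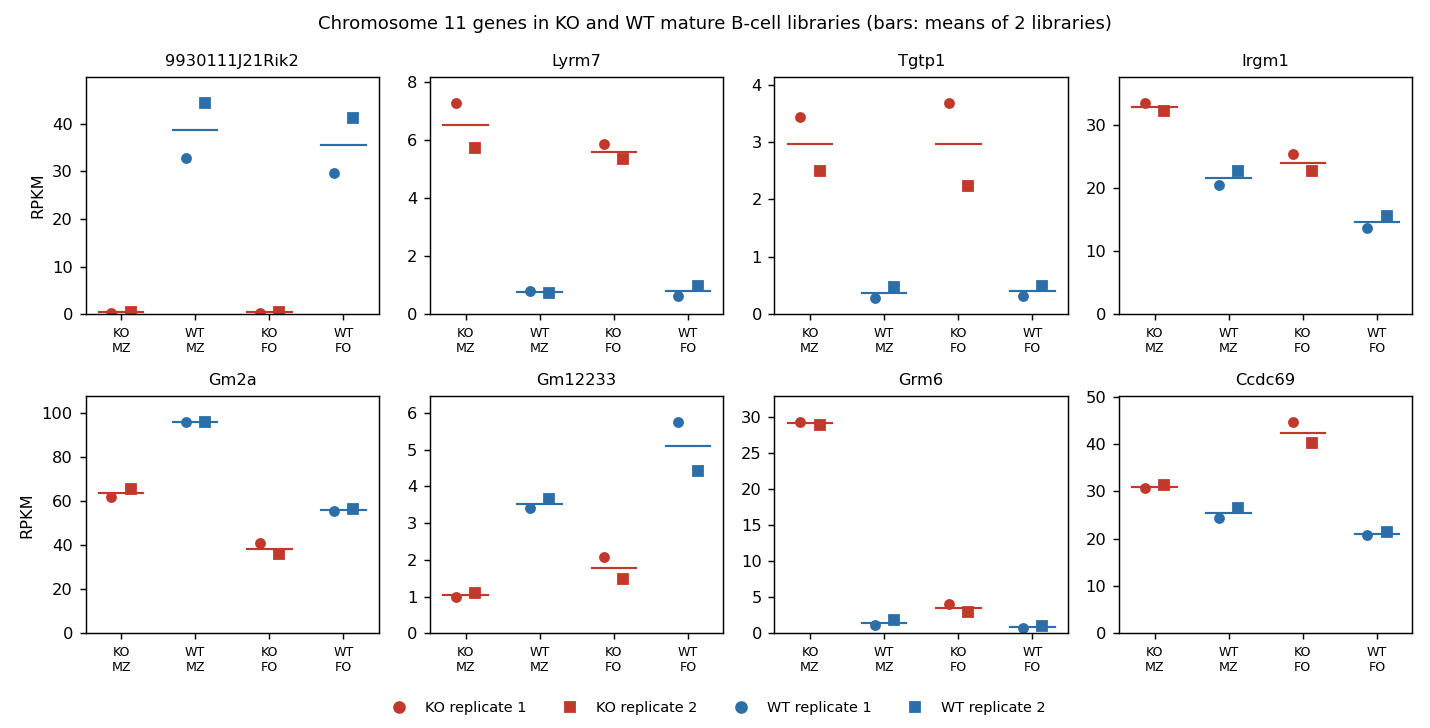
RPKM (y axis) of 8 chromosome 11 genes in each mature library, in KO and WT columns for MZ and FO (circles are replicate 1, squares are replicate 2, bars are means of 2 libraries). 9930111J21Rik2 has at most 0.40 in KO libraries, and Lyrm7 has at least 5.33 in KO and at most 0.98 in WT.

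The genes that passed lay together on 1 side of Mir146. Irgm1 starts 5.49 Mb from it, Tgtp1 5.61, 9930111J21Rik2 5.64, Lyrm7 11.5, Gm2a 11.7 and Gm12233 11.8 Mb, all toward higher coordinates. A window of 15 Mb on each side, set after these values were seen, held 152 tested genes. KO and WT libraries did not overlap in MZ and in FO, in the same direction, for 41 of them or 27.0%, of which 24 were higher and 17 lower in KO. Over all tested genes the same was seen for 997 or 8.33%, beyond the window on chromosome 11 for 9.58%, and over the other chromosomes for 7.97%. MZ and FO libraries of the same genotype and number deviated together from their group means, with correlations of 0.46 (KO) and 0.68 (WT), so the subsets are not independent of each other in these counts. On the side of higher coordinates it was 35 of 117 genes, and on the other side 6 of 35.

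Genes of this window differed in either direction and have varied roles. Those that did not pass the test are named here after their values were seen. Havcr1, a cell surface receptor of the TIM family, had 4.55 and 3.91 RPKM in KO MZ and 2.09 and 1.80 in KO FO, against 1.58 and 2.38 in WT MZ, with 1.03 and 0.96 in WT FO (log2 difference 0.83 ± 0.13, adjusted p = 0.19 in limma). Tnip1, an inhibitor of NFκB signaling, had 32.1 and 37.1 RPKM in KO MZ and 38.1 and 36.6 in KO FO, against 26.7 and 23.9 in WT MZ, with 28.5 and 26.8 in WT FO (0.43 ± 0.06, adjusted p = 0.14). The groups of both genes did not overlap, but neither gene passed the test over all genes. Anxa6, a membrane-binding annexin, differed by 0.39 ± 0.10, G3bp1, a stress granule protein, by -0.32 ± 0.08, Slc36a1, a lysosomal amino acid transporter, by -0.42 ± 0.07 and Cyfip2, an actin regulator, by -0.25 ± 0.05.

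The transitional libraries were not used for these counts. Of the 41 window genes that did not overlap in mature cells, 22 or 53.7% also did not overlap in T1 and in T2 in the same direction. All 22 were among the 35 on the side of higher coordinates, with 0 of the 6 on the other side. For the 874 such genes of other chromosomes it was 72 or 8.24%, and the sign alone was shared by 83.1%. Transitional and mature libraries may come from the same mice. The deletion of Mir146 and the DNA linked to it on chromosome 11 cannot be told apart in this design.

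**Figure D2:**
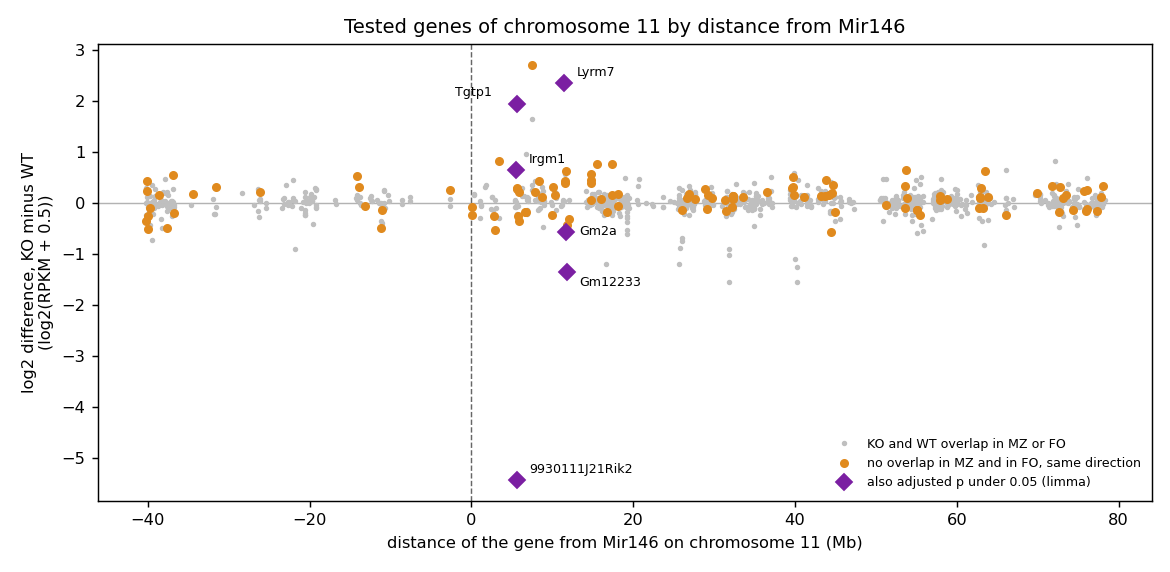
Log2 difference KO minus WT (y axis) of each tested gene of chromosome 11 by its distance from Mir146 in Mb (x axis; dashed line at Mir146). Diamonds are the 6 genes with adjusted p under 0.05 in limma, all between 5.49 and 11.8 Mb, and orange points are genes whose KO and WT libraries did not overlap in either subset.

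None of the 6 tested chromosome 11 genes past the test held the 8-base site. Gm2a held 2 of the 7-base forms and was lower in KO. 9930111J21Rik2, Lyrm7, Tgtp1 and Irgm1 held no form of AGTTCTCA, AGTTCTC or GTTCTCA in any annotated 3′ UTR, and Gm12233 has no annotated 3′ UTR. A match is a description of the letters and not proof of binding. Of 9985 tested genes with a 3′ UTR, 2189 or 21.9% held a site and 505 or 5.06% an 8-base site. Genes with no site had a median log2 difference of 0.02, with 59.0% above 0. Genes with an 8-base site had a median of 0.03, with 64.2% above 0. Their KO libraries lay above WT in both subsets for 32 or 6.34%, against 5.67% of genes with no site and 5.46% of all tested genes. An unadjusted p under 0.05 with a higher level in KO was met by 4.75% of them, against 4.66%. The genes of this class with the smallest p among those without overlap were Patz1, a zinc finger repressor, with 0.24 ± 0.06, and Rnf213, an interferon-inducible ubiquitin ligase, with 0.25 ± 0.06, both on chromosome 11 (adjusted p = 0.57 and 0.60 in limma).

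No listed target of miR-146a passed the test. Traf6 had 11.4 and 11.2 RPKM in KO MZ and 11.3 and 12.4 in KO FO, against 11.5 and 10.3 in WT MZ, with 12.7 and 11.4 in WT FO (0.01 ± 0.06, adjusted p = 0.96). Numb had 6.90 and 7.45 RPKM in KO MZ and 8.71 and 7.87 in KO FO, against 7.57 and 7.36 in WT MZ, with 7.98 and 8.62 in WT FO (-0.03 ± 0.06, adjusted p = 0.89). For these genes KO and WT libraries overlapped. Irak1 did not overlap, with 62.5 and 61.2 RPKM in KO MZ and 45.8 and 45.8 in KO FO, against 58.9 and 60.5 in WT MZ, with 41.2 and 45.5 in WT FO, yet it differed by only 0.07 ± 0.05 (adjusted p = 0.69). The lowest were Egr1, which is taken up with the immediate early genes, and Cxcr4, a chemokine receptor, at -0.96. Over the list 4 of 10 were above 0 and the median was -0.05. These values are RNA levels, and protein was not measured in these files.

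No gene of the Notch pathway, which directs B-cells to the MZ fate through Notch2, was called. Notch2 had 62.0 and 71.0 RPKM in KO MZ and 83.0 and 81.1 in KO FO, against 75.7 and 70.1 in WT MZ, with 88.6 and 76.6 in WT FO (-0.07 ± 0.07, adjusted p = 0.78). The target gene Hes1, a transcriptional repressor, had 36.5 and 46.1 RPKM in KO MZ and 15.7 and 15.6 in KO FO, against 50.9 and 40.9 in WT MZ, with 17.1 and 12.5 in WT FO (-0.03 ± 0.13, adjusted p = 0.95). Hes5, a repressor of the same family, had 9.24 and 8.26 RPKM in KO MZ, above 4.62 and 6.91 in WT MZ, but 1.02 and 1.15 in KO FO, against 0.75 and 1.09 in WT FO (0.38 ± 0.16, adjusted p = 0.67). Dtx4, a Notch regulator of the Deltex family, differed by -0.06 ± 0.09. Over 26 tested pathway genes 11 were above 0, the median was -0.02 and the range ran from Maml3 at -0.17 to Hes5.

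Differences between the subsets were not called. The test of the genotype by subset interaction gave 0 genes at an adjusted p under 0.05 in limma, and 128 genes or 1.07% at an unadjusted p under 0.05. Fitted for MZ alone, 6 genes or 0.0501% were called, 9930111J21Rik2, Lyrm7 and Trbd2 with Grm6, its antisense gene Gm12660 and Ighg2c. Grm6, a metabotropic glutamate receptor known from bipolar cells of the retina, lies in the same stretch of chromosome 11 (chr11:50850685-50866208). It had 29.3 and 28.9 RPKM in KO MZ and 4.0 and 2.90 in KO FO, against 1.18 and 1.80 in WT MZ, with 0.72 and 1.05 in WT FO. All KO libraries were above all WT libraries, and the level in KO MZ stood far above the rest. Of the 8 metabotropic glutamate receptor genes, it was the sole one that could be tested, and 4 were at 0 in all 8 libraries. The log2 difference was 3.91 in MZ (adjusted p = 0.0033) and 1.51 in FO (adjusted p = 0.26), and 2.71 ± 0.46 over both (adjusted p = 0.23). The difference between these values was 2.40 (adjusted p = 0.75), so the subsets were not shown to differ. Gm12660 lies within Grm6 on the other strand, and its reads cannot be told apart from those of Grm6.

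Ighg2c, the constant region of the class-switched IgG2c heavy chain, had 12.5 and 7.98 RPKM in KO MZ and 5.02 and 4.26 in KO FO, against 0.14 and 0.22 in WT MZ, with 0.69 and 0.98 in WT FO. It rose in MZ by 3.96 on the log2 scale (adjusted p = 0.0033 in limma), and over both subsets the difference of 2.95 was not called (adjusted p = 0.11). Ighg2b, another IgG constant region, had 16.4 and 13 RPKM in KO MZ and 18.5 and 17.2 in KO FO, against 1.86 and 4.61 in WT MZ, with 5.10 and 2.57 in WT FO (2.13, adjusted p = 0.091). KO and WT did not overlap for either gene. Other constant regions differed less. Ighg3 had 37.1 and 39.5 RPKM in KO MZ and 14.5 and 9.31 in KO FO, against 28.0 and 31.7 in WT MZ, with 5.16 and 4.51 in WT FO (0.77, adjusted p = 0.60). Ighg1 had 0.46 and 0.29 RPKM in KO MZ and 3.95 and 3.77 in KO FO, against 0.23 and 1.68 in WT MZ, with 1.13 and 1.62 in WT FO (0.35, adjusted p = 0.82). Igha overlapped between KO and WT in MZ and in FO (0.31, adjusted p = 0.84). In FO alone, 3 genes or 0.0251% were called, 9930111J21Rik2, Lyrm7 and Trbd2. Ccdc69, a coiled-coil protein gene on chromosome 11, passed there without the fold criterion. It had 44.7 and 40.1 RPKM in KO FO, against 20.8 and 21.3 in WT FO, and 30.7 and 31.3 in KO MZ, against 24.4 and 26.5 in WT MZ (0.99 in FO, adjusted p = 0.027).

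Without the KO replicate 1 libraries of both subsets, 3 genes or 0.0251% were called. 9930111J21Rik2 (-5.37, adjusted p = 0.0040 in limma) and Lyrm7 (2.23, adjusted p = 0.047) were called again. The third was Gm11942, a processed pseudogene on chromosome 4 (chr4:32964888-32965232). It had 204 RPKM in KO MZ replicate 2 and 115 in KO FO replicate 2, but 0.64 and 1.04 in the KO replicate 1 libraries, against 0.80 and 1.84 in WT MZ, with 0.44 and 0.74 in WT FO. Within the mature libraries, its high level was thus seen in KO replicate 2 alone. Of the transitional libraries, KO T2 replicate 2 had 90.9 RPKM, KO T1 replicate 2 had 68.2 and KO T2 replicate 1 had 26.8, and the other 5 had 1.04 or less. Its difference over all 8 mature libraries, 3.38, was not called. Without KO replicate 1, 59.1% of all genes lay above 0.

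Genes of the interferon response had small positive differences, and none passed the test over all genes. All 30 tested members of the list had a log2 difference above 0, against 59.2% of all tested genes, with a median of 0.26 against 0.03. KO lay above WT in both subsets for 12 of the 30, against 5.46% of all tested genes, and 14 had an unadjusted p under 0.05, against 4.76%. Without KO replicate 1 all 30 stayed above 0 with a median of 0.33, and without WT replicate 1 all 30 did, with a median of 0.29. Without KO replicate 2 it was 26 of 30 with a median of 0.14, and without WT replicate 2 it was 28 of 30 with a median of 0.21. In the transitional libraries 29 of 30 were above 0 with a median of 0.33, against 53.8% of all genes. The count was lower between the replicate 1 libraries alone, 22 of 30 with a median of 0.14, against 61.0% of all genes. Between the replicate 2 libraries alone it was 30 of 30 with a median of 0.42, against 47.9% of all genes.

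Rtp4, an interferon-inducible chaperone and antiviral protein, had 17.1 and 17.6 RPKM in KO MZ and 11.7 and 12.2 in KO FO, against 12.5 and 12 in WT MZ, with 6.77 and 8.38 in WT FO. It had the smallest p of the list, with 0.56 ± 0.07 (adjusted p = 0.11 in limma). Oas2, a sensor of double-stranded RNA, had 22.9 and 26.4 RPKM in KO MZ and 9.08 and 11.8 in KO FO, against 17.6 and 17.7 in WT MZ, with 5.90 and 6.38 in WT FO (0.59 ± 0.10, adjusted p = 0.23). Trim30a, a restriction factor, had 88.0 and 84.0 RPKM in KO MZ and 53.1 and 71.8 in KO FO, against 60.8 and 67.6 in WT MZ, with 40.9 and 47.4 in WT FO (0.45 ± 0.10, adjusted p = 0.53). KO and WT did not overlap for any of these. Isg15, a ubiquitin-like modifier, had 28.0 and 32.2 RPKM in KO MZ and 9.29 and 7.85 in KO FO, against 26.2 and 24.9 in WT MZ, with 5.82 and 4.85 in WT FO (0.43 ± 0.11). Ifitm3, a membrane protein that blocks viral entry, had the largest difference of the list, 0.63 ± 0.31, but its libraries overlapped. At the other end of the list stood Oasl1 at 0.01 and Rsad2 at 0.02.

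The guanylate-binding proteins, interferon-induced GTPases that attack the vacuoles of intracellular microbes, also had positive differences and no call. All 9 tested had a difference above 0, 5 did not overlap and 6 had an unadjusted p under 0.05, with a median of 0.22. Over all tested genes 59.2% were above 0, 5.46% were higher without overlap and 4.76% were higher at that p. Gbp6 had 5.29 and 5.76 RPKM in KO MZ and 3.09 and 2.76 in KO FO, against 3.75 and 3.35 in WT MZ, with 1.73 and 1.13 in WT FO (0.71 ± 0.12, adjusted p = 0.23). The lowest were Gbp4 and Gbp9 with 0.09 and 0.10. The 8 tested members placed by GENCODE M21 lie on chromosomes 3 and 5.

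**Figure D3:**
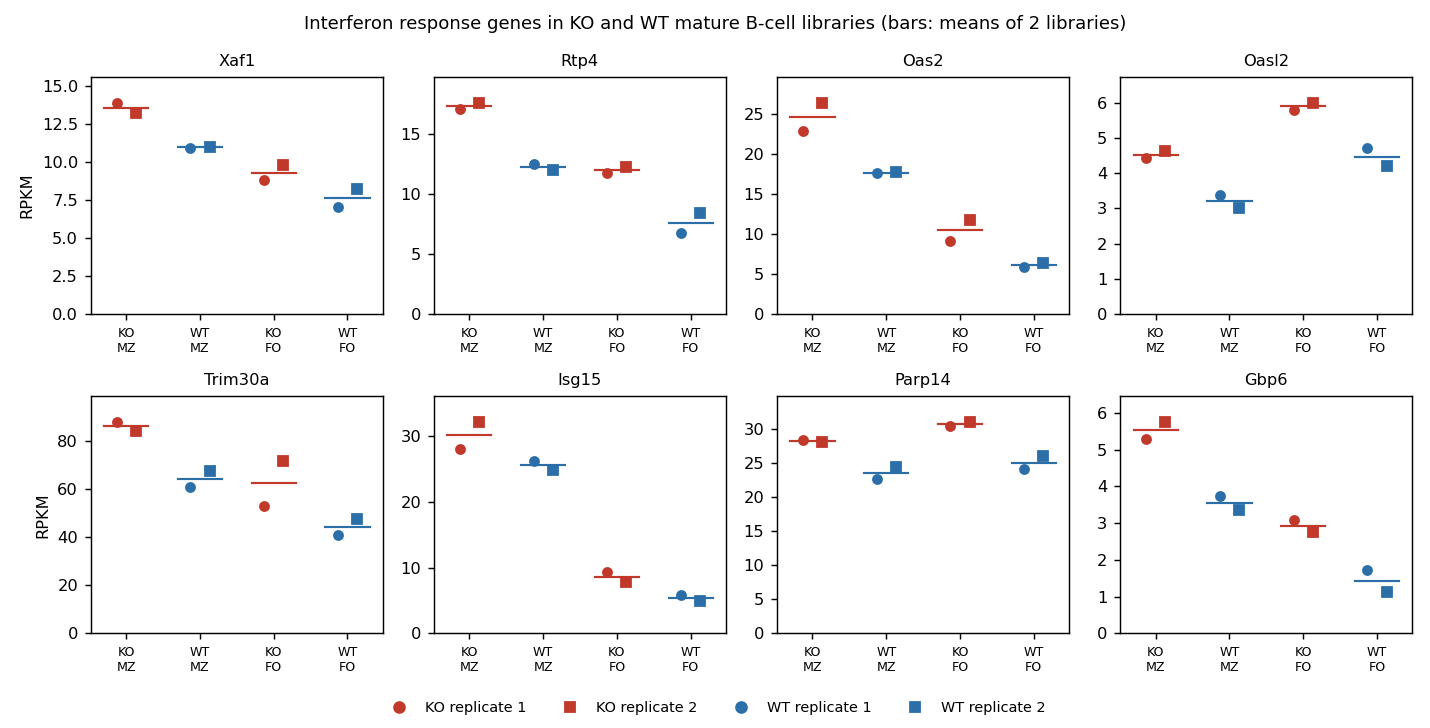
RPKM (y axis) of 7 interferon response genes and Gbp6, picked among those without overlap, in each mature library, in KO and WT columns for MZ and FO (circles are replicate 1, squares are replicate 2, bars are means of 2 libraries). KO points lie above WT points within each subset, for example 17.1 and 17.6 against 12.5 and 12 for Rtp4 in MZ.

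The immunity-related GTPases differed in either direction. Of 11 tested, 7 were above 0 without overlap, 2 were below without overlap, and 3 passed the test. Over all tested genes these shares were 5.46%, 2.87% and 0.0585%. Besides 9930111J21Rik2, Tgtp1 and Irgm1, the members included Igtp, with 24.9 and 19.4 RPKM in KO MZ and 26.3 and 20.3 in KO FO, against 16.3 and 18.6 in WT MZ, with 15.7 and 18.0 in WT FO (0.39 ± 0.11, adjusted p = 0.62 in limma). Gm5431 differed by 0.67 ± 0.09 (adjusted p = 0.11). Ifi47 was on the lower side in KO, with 22.1 and 20.7 RPKM in KO MZ and 23.3 and 20.8 in KO FO, against 23.3 and 29.2 in WT MZ, with 24.1 and 27.5 in WT FO (-0.25 ± 0.08, adjusted p = 0.67). Of the 11 genes, 10 lie within the window of 15 Mb around Mir146 and the other, Irgc1 on chromosome 7, had -0.36. The interferon list had no member in that window.

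Immediate early genes are transcribed within minutes of stimulation or handling, and their levels varied widely between libraries of the same group. Over the 28 tested genes the median log2 difference was -1.26 and all 28 were below 0, but none passed the test, none was free of overlap and 1 had an unadjusted p under 0.05. The 29 listed genes summed to 505 RPKM in KO MZ replicate 1, 2858 in KO MZ replicate 2, 1026 in KO FO replicate 1 and 2476 in KO FO replicate 2. The WT sums were 5338 in WT MZ replicate 1, 2071 in WT MZ replicate 2, 4803 in WT FO replicate 1 and 1665 in WT FO replicate 2. The highest and the lowest libraries were thus all replicate 1. Between the replicate 1 libraries the median was -3.31 with 0 of 28 genes above 0, and between the replicate 2 libraries it was 0.62 with 26 of 28 above 0. Without KO replicate 1 it was -0.08 with 9 of 28 above 0, and without WT replicate 1 it was -0.38 with 4 of 28 above 0.

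Fos, a subunit of the AP-1 factor, was one example, with 4.03 and 333 RPKM in KO MZ and 36.2 and 290 in KO FO, against 663 and 192 in WT MZ, with 639 and 138 in WT FO (-2.36 ± 1.39, adjusted p = 0.67 in limma). Fosb, another subunit, had the lowest value of the list, -2.71 ± 1.68. Egr1, a zinc finger factor induced through the B-cell receptor, had 3.32 and 45.5 RPKM in KO MZ and 15.2 and 25.6 in KO FO, against 136 and 37.0 in WT MZ, with 84.5 and 36.7 in WT FO (-1.95 ± 0.80, adjusted p = 0.67). Heat shock genes, which encode protein-folding chaperones, had a median over 11 tested genes of -0.14 with all libraries, -0.77 between the replicate 1 libraries and 0.49 between the replicate 2 libraries. NFκB response genes, with 7 of 26 above 0 and a median of -0.12, gave 0.01 without KO replicate 1. Among them Ccl3, a chemokine, was lowest at -1.55 ± 0.92 and Tnip1 highest.

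**Figure D4:**
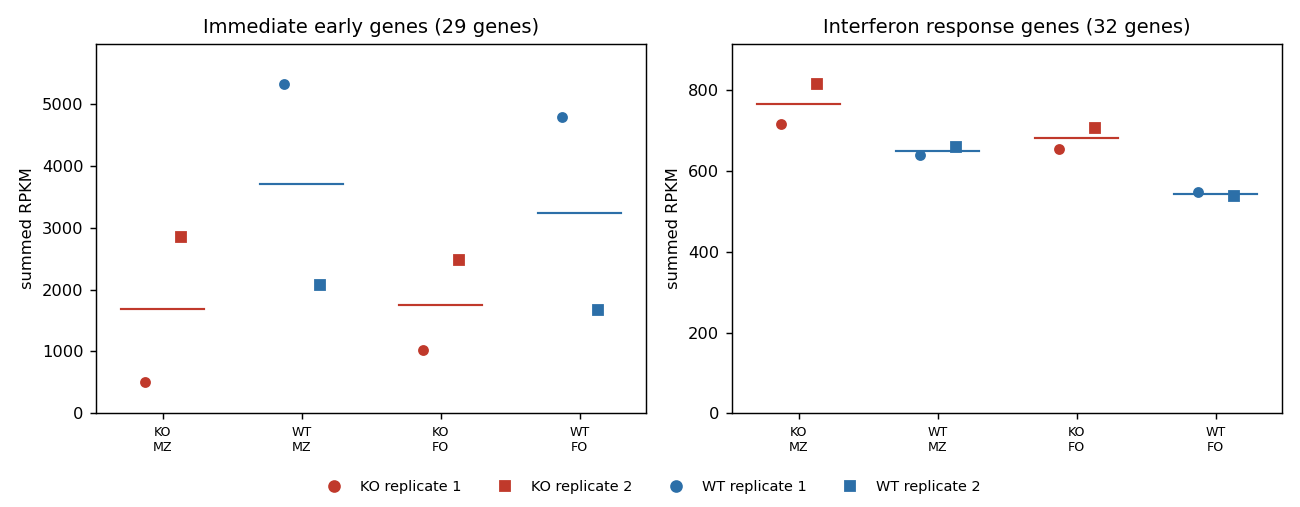
Summed RPKM (y axis, from 0) of 29 immediate early genes and of 32 interferon response genes in each mature library, in KO and WT columns for MZ and FO (circles are replicate 1, squares are replicate 2, bars are means of 2 libraries). The immediate early sum runs from 505 in KO MZ replicate 1 to 5338 in WT MZ replicate 1, while the interferon sums of KO lie above those of WT in each subset.

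No gene of the lists on other programs of mature B-cells was called. MZ B-cell markers had a median of 0.04 over 14 genes and FO B-cell markers of -0.09 over 9. Ffar2 was highest in the first list at 0.33, with -0.07 in MZ and 0.74 in FO. Klf2, a trafficking factor, was lowest in the other at -1.07 ± 0.82. It had 9.66 and 131 RPKM in KO MZ, against 211 and 68.1 in WT MZ. Without KO replicate 1 Klf2 was at -0.07 and the median of the FO list was 0.06. B-cell receptor signaling genes (24 tested) had a median of -0.03. BAFF signaling genes (15) had a median of 0.02, with 0 higher and 3 lower without overlap. Toll-like receptor signaling genes (26) had a median of 0.05, with Tlr3 highest at 0.33 and Tab1 lowest at -0.21. Of these 26, 5 were higher and 3 lower without overlap. Over all tested genes 5.46% were higher and 2.87% lower without overlap. At an unadjusted p under 0.05 in limma, 0 of the 26 were higher and 2 lower, against 4.76% and 2.26%. MHC class II presentation genes had 1 of 12 above 0 and a median of -0.13, and 3 of them were lower in KO without overlap, against 2.87% of all tested genes. H2-Oa was the lowest at -0.23 ± 0.10 (adjusted p = 0.67 in limma). In the transitional libraries 1 of the 12 was above 0.

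Cell cycle genes had 18 of 20 above 0 and a median of 0.18, with 7 at an unadjusted p under 0.05 and 1 without overlap. Over all tested genes 59.2% were above 0, 4.76% were higher at that p and 5.46% were higher without overlap. Mki67, the proliferation marker, had 4.79 and 6.90 RPKM in KO MZ and 3.82 and 3.28 in KO FO, against 3.48 and 5.79 in WT MZ, with 1.31 and 1.36 in WT FO (0.73 ± 0.22, adjusted p = 0.63). In FO its KO libraries were above WT and in MZ they overlapped. Markers of B1 and age-associated B-cells were above 0 in 9 of 9 with a median of 0.27. Of these 9, 3 were higher in KO without overlap, against 5.46% of all tested genes. Tbx21, the transcription factor T-bet, had 0.48 and 0.64 RPKM in KO MZ and 4.53 and 2.22 in KO FO, against 0.13 and 0.21 in WT MZ, with 2.12 and 1.61 in WT FO (0.65 ± 0.20, adjusted p = 0.66). Of 6 tested germinal center markers 5 were above 0, with a median of 0.36. Without overlap 3 of the 6 were higher, against 5.46% of all tested genes. The median was 0.10 in MZ and 0.57 in FO. Without KO replicate 1, 4 of the 6 were above 0 with a median of 0.27. Rgs13, a regulator of G protein signaling, was highest at 0.58 ± 0.13, and Bcl6 was lowest at -0.10. In MZ Rgs13 was low, with 0.23 and 0.35 RPKM in KO, against 0.07 and 0.03 in WT. Plasma cell markers had a median of 0.02 over 10 genes, and immature B-cell markers of 0.07 over 5. Igj, the joining chain of secreted antibodies and a plasma cell marker, was higher without overlap at 1.08 (adjusted p = 0.58 in limma). Of the 10 tested plasma cell markers 6 were above 0, and Igj was the 1 higher without overlap. Irf4 was lowest of that list at -0.47, and Prdm1 was at -0.29.

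Markers listed for other cell types were mostly low but not even between libraries. The 14 T cell markers summed to 21.7 to 45.6 RPKM in KO libraries, against 11.3 to 42.8 in WT libraries. Of 12 tested, 3 were higher in KO without overlap, against 5.46% of all tested genes. All 12 were above 0 with a median of 0.39. Without WT replicate 1 that was 7 of 12 with a median of 0.09. Trbc1, a constant region of the T cell receptor, had 1.45 and 1.56 RPKM in KO MZ and 3.85 and 3.55 in KO FO, against 0.43 and 0.93 in WT MZ, with 2.07 and 2.75 in WT FO. Neutrophil markers summed to 2.82 to 34.1 RPKM in KO, against 0.88 to 13.1 in WT, with all 5 tested above 0 and a median of 1.24, which was 0.37 without WT replicate 1, 0.42 without KO replicate 2 and 2.06 without KO replicate 1. The sums of macrophage markers were 16.8 to 130 RPKM in KO, against 12.4 to 105 in WT, with 8 of 10 tested above 0, or 3 of 10 without WT replicate 1. Mpeg1 made up most of the MZ sums, with 108 and 80.8 RPKM in KO MZ and 72.4 and 78.5 in WT MZ. In FO it had 11.4 and 9.24 in KO and 6.62 and 6.72 in WT. The sums of dendritic cell markers were 1.85 to 3.68, against 1.48 to 3.38. NK cell markers summed to 3.30 to 14.1 RPKM in KO, against 3.45 to 13.2 in WT, and erythroid and platelet markers to 0.96 to 4.03, against 1.31 to 6.70. Prf1 made up most of the NK cell sums in MZ, with 6.85 and 9.25 RPKM in KO MZ and 12.05 and 8.73 in WT MZ. In FO it had 1.09 to 1.53. Which cells held these 2 transcripts was not tested. No member of these 6 lists was at 0 in all 8 libraries, none was called, and their part in the differences above was not tested. In bulk libraries, fewer cells of a type and less RNA per cell cannot be told apart.

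**Figure D5:**
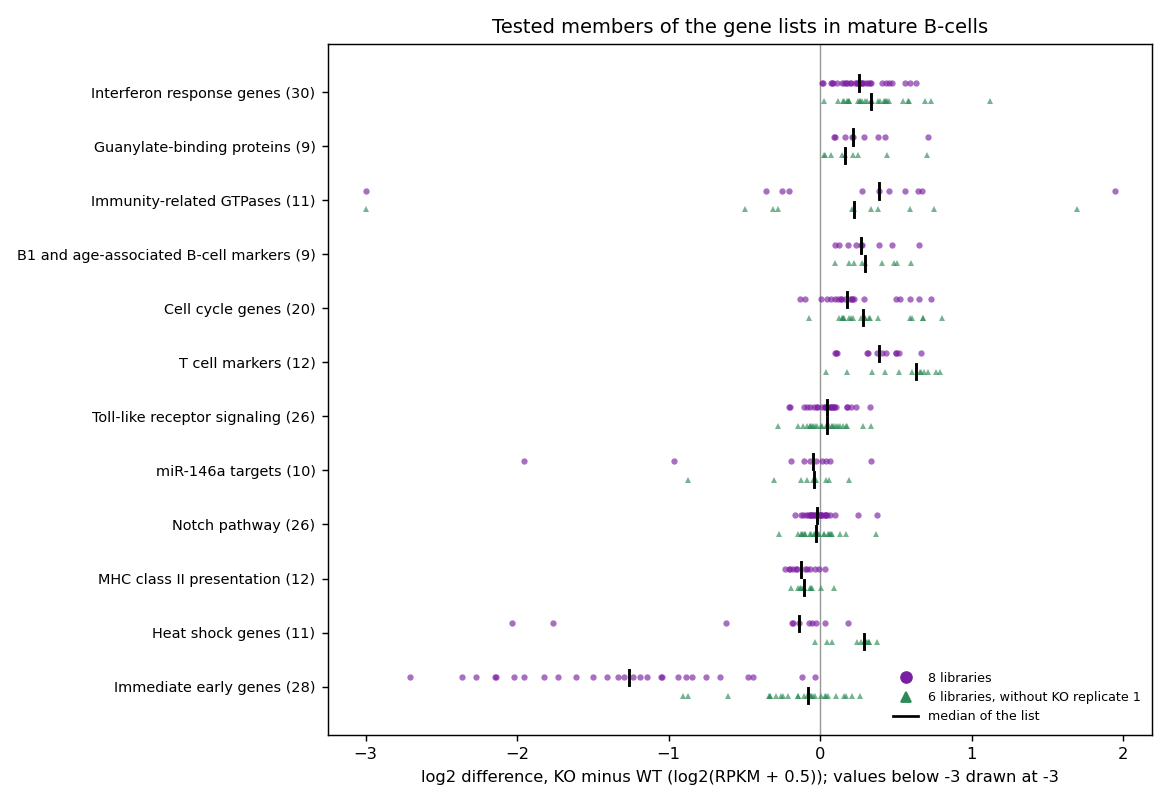
Log2 difference KO minus WT (x axis) of every tested member of 12 gene lists (rows, with the number tested), over the 8 libraries (circles) and over the 6 libraries without KO replicate 1 (triangles). Black bars are medians, which move from -1.26 to -0.08 for immediate early genes and from 0.26 to 0.33 for interferon response genes.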

How the data were processed

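RNA was extracted from sorted splenic B-cell subsets, built into Illumina TruSeq V2 libraries and sequenced single-end. The submitters' processing notes name TopHat, DESeq, edgeR and the mouse build mm10 (GRCm38), with no versions. The authors deposited a table of RPKM for 38355 genes in 16 libraries, scaled by library total and gene length, which was used as deposited. It holds no raw counts. Reads were recovered from the RPKM steps for 99.99% of the 23194 genes above 0 (within 0.01 of a whole read). They served to state depth, 13503388 to 26386684 reads per mature library, and for 1 alternative (limma-voom). Of the recovered genes, 13395 gave whole reads at the GENCODE M21 exon length. Another 9797 did so at the smallest other length found by search, and their reads could be off by a common factor. The floor in reads covers counting error only. Each ± is the SE from limma, which measures the spread between these libraries.

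Groups came from the labels. Genes whose mean RPKM passed 1 in any of the 4 mature groups were tested with limma 3.58.1 in R 4.3.3 (eBayes with trend) on log2(RPKM + 0.5), KO minus WT with subset as covariate, two-sided, with Benjamini-Hochberg adjustment. Calls needed an adjusted p under 0.05 and a log2 difference beyond 1. A fold change on this scale understates the change of low genes. The same fit was made without KO replicate 1, for each subset, for the interaction and for the transitional libraries. Alternatives were other pseudocounts, filters, scalings, blocks and each library left out.

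Gene positions and 3′ UTR sequences were taken from GENCODE M21 (36602 genes matched by ID) and the miRNA from RefSeq. Seed matches were searched on the transcript strand only, in every annotated 3′ UTR of coding transcripts, as AGTTCTCA, AGTTCTC and GTTCTCA, an 8-base match being counted once. Named genes were those called, the genes the study singles out and the extremes of each gene list, of which some are not reported here. The comparison, its members and all lists were chosen with earlier results of these data known, and list counts are descriptions with no test. The list values without WT replicate 1 and within each replicate number were chosen after seeing the data. Replicate numbers are shared between KO and WT, but replicate 1 deviations of KO and WT correlated between -0.60 and -0.16 over 8657 genes, so the numbers were not taken as pairs. Those of MZ and FO within a genotype correlated at 0.46 (KO) and 0.68 (WT).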

Additional observations from a re-analysis of the deposited data

How the results depend on the processing

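The count of 5 genes called became 3 with no filter on low values, 3 in FO alone and 3 without KO replicate 1, and ran between 3 and 4 when each library was left out. It was 6 in MZ alone and 7 with all 16 libraries. The count of 7 without the fold criterion became 4 with no filter, 4 with a replicate block, 4 in FO alone and 3 without KO replicate 1, ran between 3 and 5 with each library left out, and was 10 with all 16 libraries. The 841 genes at an unadjusted p under 0.05 became 1364 with no filter, 542 with a correlation of MZ and FO libraries, 337 with all 16 libraries and 1485 with the crossed block. In transitional B-cells the count of 2 became 1 without KO replicate 1. With the replicate block 4 genes were called, and a block with KO and WT numbers crossed, added after seeing the data, gave 5 and 7. 9930111J21Rik2 and Lyrm7 were called under all 25 alternatives, with log2 differences of -6.63 to -4.78 and 1.97 to 2.92. Tgtp1 was called under 12 of 24, Gm12233 under 14 of 25, Gm2a under 13 and Irgm1 under 11 of 25, and none of the 7 genes changed direction. Trbd2 was called under 22 of 24, lost without KO replicate 1 and in limma-voom. The causes were not tested. With 2 libraries a group and reads as few as 2, small differences of low genes were not detectable at this depth.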
